A study of Mus musculus with 64 samples.

Results

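The comparison set the hippocampus of Tg2576 mice that received the phosphodiesterase inhibitor PF-04447943 against the hippocampus of wild-type mice that received vehicle, and so asked what still differed from untreated wild-type tissue in treated transgenic mice. It used 16 of the 64 samples of the series, 8 titled as hippocampus, PDE9 and Tg+ and 8 titled as hippocampus, vehicle and Tg-. The first group were Tg2576 mice, which overexpress a mutant form of the human amyloid precursor protein, infused with PF-04447943. The second were non-transgenic littermates infused with vehicle. All mice were 4 months old and of the B6SJLF1 background, and minipumps under the skin delivered compound or vehicle for 28 days. The remaining hippocampal samples, 8 vehicle-treated Tg2576 and 8 PF-04447943-treated wild-type mice, entered the same model, and the 32 samples of prefrontal cortex had the same 4 groups. Each RNA sample was measured on a separate Affymetrix whole-genome mouse array, which reads a transcript with one or more sets of short probes (probe sets).

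PDE9A, the enzyme that PF-04447943 inhibits, hydrolyses cyclic GMP, a second messenger that acts downstream of nitric oxide and of natriuretic peptides in neurons. In the Tg2576 line the transgene is driven by the prion protein gene promoter of the hamster, and amyloid plaques form well after the age studied here. Much of the expression described below concerns cholesterol synthesis. The brain makes its own cholesterol, since plasma lipoproteins do not cross the blood-brain barrier, and the enzymes run from HMG-CoA through mevalonate and farnesyl diphosphate to squalene, lanosterol and cholesterol. Their genes are activated together by SREBP2, the product of Srebf2, which SCAP carries out of the endoplasmic reticulum when sterols are low and which INSIG proteins hold back when sterols are plentiful.

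Because genotype and compound both differ between the groups, a difference here cannot be assigned to either alone. The labels give 8 mice per group, so p-values measure the spread between mice, and in bulk tissue fewer cells of a type and less RNA per cell cannot be told apart. Markers of hippocampal CA pyramidal cells averaged a log2 intensity of 9.54 to 10.35 on treated Tg2576 and 10.01 to 10.33 on vehicle wild-type arrays, but some arrays stood apart. Treated Tg2576 array 1 had a mean log2 intensity of 7.10 over the 9 measured dentate granule cell markers, against 8.61 to 9.22 on the other 7 arrays of its group. The same array had the lowest mean of the myelin and oligodendrocyte markers, 9.48, and the highest mean of the cortical layer neuron markers, 9.90. Choroid plexus markers averaged 10.11 on treated Tg2576 array 4. They averaged 10.38 on vehicle wild-type array 5, the highest of a group that was widely spread, from 6.71. For several genes and lists that these arrays touch, values without them are also given. The signal range of an array, the distance between the quartiles of its log2 values, was 3.60 ± 0.11 in treated Tg2576 and 3.52 ± 0.08 in vehicle wild-type arrays (SD, n = 8 each; two-sided exact permutation p = 0.102, adjusted over 3 array measures 0.306).

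Of 12961 genes tested, 5 passed an adjusted p of 0.05 in limma, which is 0.0386% of the genes tested. Of these, 4 act in sterol metabolism and were higher in treated Tg2576 hippocampus, namely Fdft1, Sqle and Hmgcs1, enzymes of cholesterol synthesis, and Stard4, a carrier of sterol between membranes. The single gene that was lower was Slc17a2, a member of the sodium-dependent phosphate transporter family. The 4 rises were 0.0309% of the genes tested and the fall was 0.00772%. At an unadjusted p under 0.05 there were 1233 genes (9.51%), 750 higher (5.79%) and 483 lower (3.73%), where 648.05 would be expected by chance. With the signal range of each array as a covariate there were 682, and the part of the signal range was not tested otherwise. The count of 5 became 4 to 6 when arrays were left out in turn and 5 without both treated Tg2576 array 1 and vehicle wild-type array 5. It was 2, Fdft1 and Stard4, with the dentate granule marker level as a covariate, and 0 when only arrays numbered 1 to 4 or only those numbered 5 to 8 were fitted. The median difference over all genes tested was 0.02 on the log2 scale, and 59.3% of the genes had a difference above 0.

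**Figure D1:**
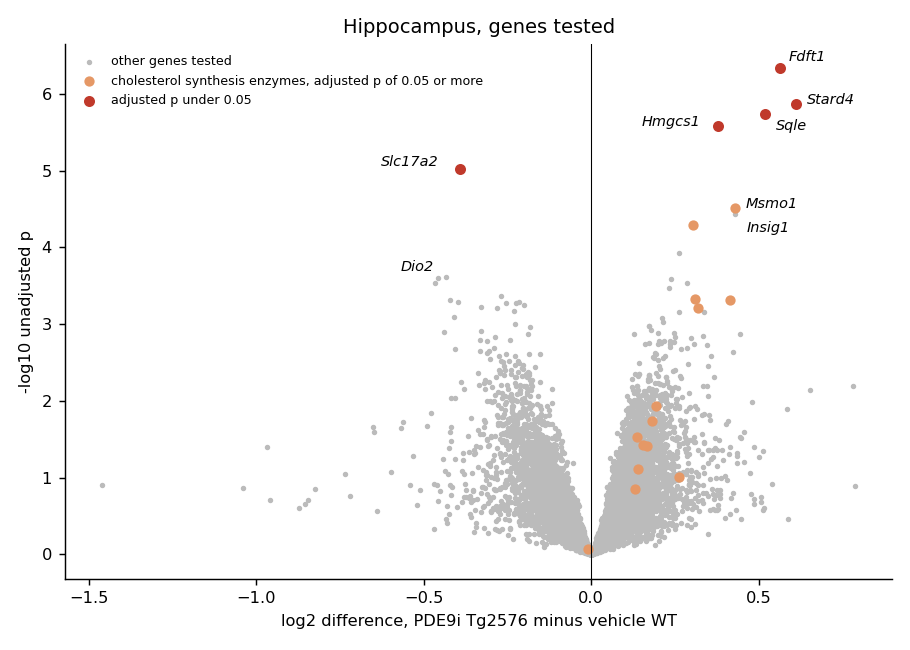
Each point is a gene tested in hippocampus, with the log2 difference of treated Tg2576 minus vehicle wild type on the x axis and minus log10 of the unadjusted limma p on the y axis. The 5 genes past an adjusted p of 0.05 are red, the other cholesterol synthesis enzymes orange; Fdft1, Stard4, Sqle and Hmgcs1 stand highest on the right, Slc17a2 on the left, and all orange points but Ebp lie right of 0.

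Fdft1 encodes squalene synthase, which joins farnesyl diphosphate into squalene and is the first enzyme committed to sterols. Its log2 intensity ran over 10.47, 10.58 and 10.96 (lowest, median and highest of 8 arrays) in treated Tg2576 hippocampus, against 9.73, 10.05 and 10.32 in vehicle wild-type hippocampus. Every treated Tg2576 array lay above every vehicle wild-type array. The difference was 0.56 ± 0.09 (SE), a fold of 1.48 with a 95% interval of 1.30 to 1.67 (limma adjusted p = 0.0060). The highest value belonged to array 1 of the treated Tg2576 group, and without that array the difference was 0.51 (adjusted p = 0.0148). Of the 4 Fdft1 probe sets, the other bright one gave a difference of 0.63, while the dim ones gave -0.07 and 0.01.

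Sqle encodes squalene epoxidase, the next enzyme and a rate-limiting step of the sterol branch. Its log2 intensity was 10.23, 10.37 and 10.42 (lowest, median and highest) in treated Tg2576 hippocampus, against 9.62, 9.83 and 10.08 in vehicle wild-type hippocampus. The treated Tg2576 values were tightly grouped, with an SD of 0.06 against 0.16 in vehicle wild type, and the groups did not overlap. The difference was 0.52 ± 0.09 (SE), a fold of 1.43 with a 95% interval of 1.26 to 1.62 (limma adjusted p = 0.00793).

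Hmgcs1 encodes the cytosolic HMG-CoA synthase that feeds the pathway at its start. Its log2 intensity was 12.25, 12.36 and 12.80 (lowest, median and highest) in treated Tg2576 hippocampus, against 11.86, 12.03 and 12.08 in vehicle wild-type hippocampus. The highest value was again array 1 of the treated Tg2576 group, and the other 7 arrays still lay above all vehicle wild-type arrays. The difference was 0.38 ± 0.07 (SE), a fold of 1.30 with a 95% interval of 1.18 to 1.43 (limma adjusted p = 0.00856). Without array 1 it was 0.32 (adjusted p = 0.0148). All 4 Hmgcs1 probe sets above the intensity filter gave differences between 0.38 and 0.54. A fit of only the compared groups gave Hmgcs1 an adjusted p of 0.0648, and a fit with the dentate granule marker level as a covariate gave both Hmgcs1 and Sqle 0.0700.

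Stard4 encodes a soluble protein that moves cholesterol to the endoplasmic reticulum and is itself an SREBP2 target. Its log2 intensity was 8.36, 8.48 and 9.05 (lowest, median and highest) in treated Tg2576 hippocampus, against 7.66, 7.96 and 8.22 in vehicle wild-type hippocampus. The groups did not overlap. The difference was 0.61 ± 0.10 (SE), a fold of 1.53 with a 95% interval of 1.32 to 1.77 (limma adjusted p = 0.00793), and it was 0.54 without array 1 of the treated Tg2576 group (adjusted p = 0.0148). Its 3 probe sets gave 0.57, 0.61 and 0.75.

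**Figure D2:**
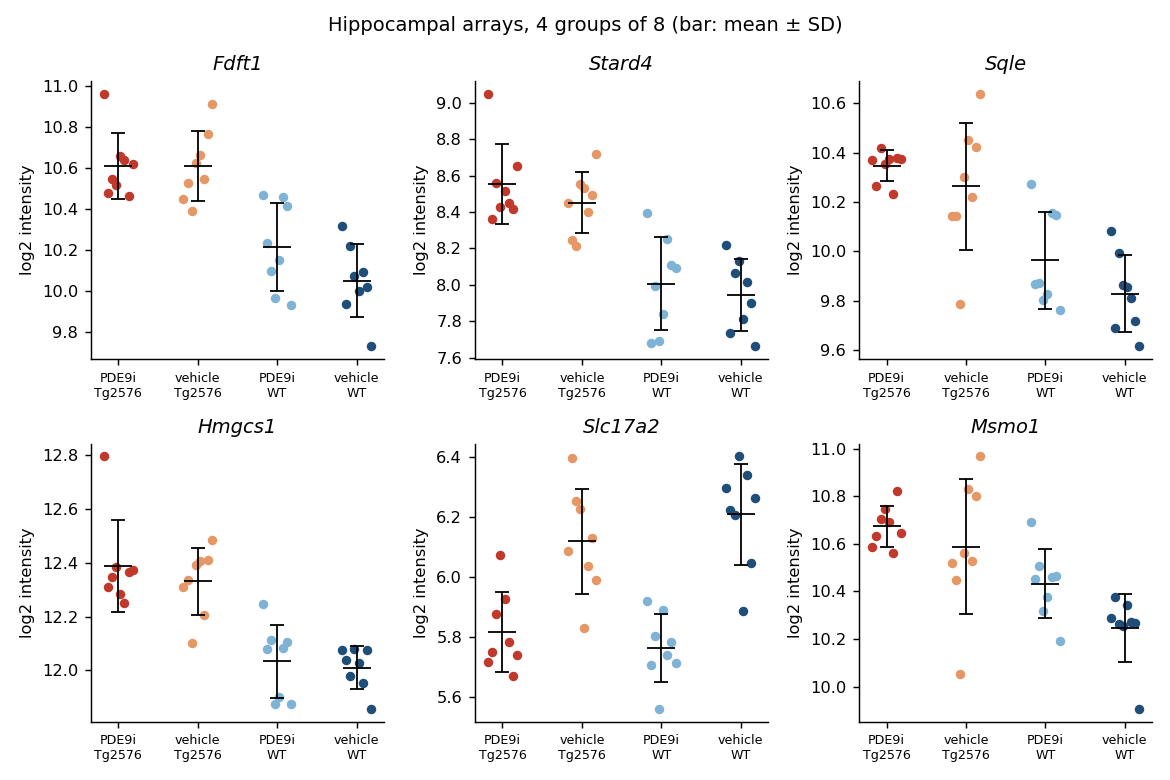
Log2 intensity (y axis) of the 5 genes past the threshold and of Msmo1 on each hippocampal array, with the treated Tg2576 group on the left and the vehicle wild-type group on the right; points are arrays and bars are mean ± SD of 8 arrays. For Fdft1, Stard4, Sqle, Hmgcs1 and Msmo1 the leftmost and rightmost groups do not overlap, and the Slc17a2 panel has both vehicle groups above both treated groups in mean.

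Slc17a2 differed from the sterol genes in level and in pattern. Its log2 intensity was 5.67, 5.77 and 6.07 (lowest, median and highest) in treated Tg2576 hippocampus, against 5.89, 6.24 and 6.40 in vehicle wild-type hippocampus. The groups overlapped, with 6 of 8 treated Tg2576 arrays below the lowest vehicle wild-type array. The difference was -0.39 ± 0.07 (SE), a fold of 0.763 with a 95% interval of 0.687 to 0.847 (limma adjusted p = 0.0250). Its mean over all hippocampal arrays, 5.98, lay just above the filter level of 5.94, and its other probe set, at a mean log2 intensity of 3.22 in both groups, gave a difference of 0.01. The call was lost, with adjusted p between 0.0571 and 0.104, without any 1 of treated Tg2576 arrays 1, 2, 6, 7 and 8 or vehicle wild-type arrays 1, 2, 3, 4, 6 and 8, and also with the signal range as a covariate (adjusted p = 0.0838) and in a fit of only the compared groups (adjusted p = 0.125).

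The cholesterol synthesis enzymes as a list held 20 genes, of which 17 had a probe set and were tested. Beside the 3 that rose, 0 fell, and 13 of the 17 were higher at an unadjusted p under 0.05, where 5.79% of all genes tested were. The median difference over the 17 was 0.26, beside 0.02 over all genes tested, and 16 of 17 lay above 0, beside 59.3% of all genes tested. The mean log2 intensity of the 17 was 9.36 to 9.50 on treated Tg2576 arrays, against 8.99 to 9.25 on vehicle wild-type arrays, with no overlap. The list had been chosen with earlier results of these arrays known, so its direction is not independent evidence.

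Among the enzymes up to farnesyl diphosphate, Hmgcs1 was followed by Fdps, which makes that intermediate, with a difference of 0.41 ± 0.11 (SE; limma adjusted p = 0.294). Fdps had a log2 intensity of 9.84 to 10.23 in treated Tg2576 and 9.47 to 9.73 in vehicle wild-type hippocampus, so its groups did not overlap although it missed the threshold. Mvd, mevalonate diphosphate decarboxylase, had a difference of 0.31 and Idi1, the isomerase of its product, 0.19. The kinases Mvk and Pmvk had 0.14 and 0.15.

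From squalene on, Fdft1 and Sqle were followed by Msmo1, a sterol methyl oxidase. Msmo1 had a log2 intensity of 10.56, 10.67 and 10.82 (lowest, median and highest) in treated Tg2576 hippocampus, against 9.91, 10.27 and 10.38 in vehicle wild-type hippocampus. These did not overlap, and the difference of 0.43 ± 0.09 (SE) had a limma adjusted p of 0.0664. The sterol dehydrogenase Nsdhl had a difference of 0.32 and the keto-reductase Hsd17b7 one of 0.30 (limma adjusted p = 0.0816, and 0.0160 without treated Tg2576 array 3). Smaller values were found for Sc5d, 0.26 with an SE of 0.15, Cyp51, the lanosterol demethylase, 0.18, Dhcr7, 0.17, Lss, the cyclase that forms lanosterol, 0.14, and Tm7sf2, a sterol reductase, 0.13. Ebp, the sterol isomerase, was the exception with a difference of -0.01 ± 0.05 (SE), which was 0.01 without treated Tg2576 array 1.

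**Figure D3:**
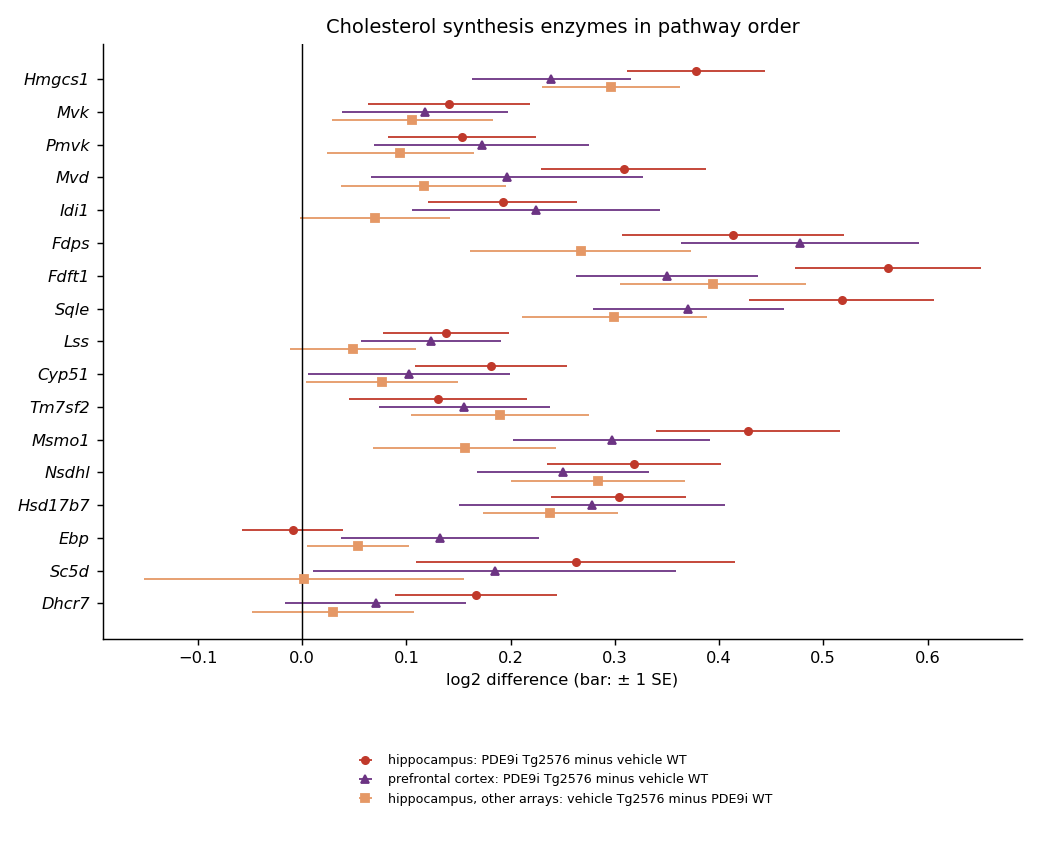
Log2 difference (x axis, bars ± 1 SE) of the 17 measured cholesterol synthesis enzymes, in pathway order from top to bottom. Red circles give treated Tg2576 minus vehicle wild type in hippocampus, purple triangles the same in prefrontal cortex, and orange squares vehicle Tg2576 minus treated wild type on the other hippocampal arrays; Ebp in the red series is the only value below 0.

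The sterol sensing, uptake and transport list gave a mixed picture, with 1 of 12 tested members past the threshold, Stard4, beside 0.0309% of all genes tested that rose, and 0 that fell, beside 0.00772%. Insig1, whose product holds SREBP2 back and whose gene SREBP2 activates, had a log2 intensity of 8.93, 9.12 and 9.39 (lowest, median and highest) in treated Tg2576 hippocampus, against 8.26, 8.73 and 8.92 in vehicle wild-type hippocampus. The groups did not overlap. The difference was 0.43 ± 0.09 (SE; limma adjusted p = 0.0675, and 0.0429 or 0.0427 without vehicle wild-type array 5 or 7). Srebf2 itself had a difference of 0.17 ± 0.06 (SE; limma adjusted p = 0.460), with 6 of 8 treated Tg2576 arrays above the highest vehicle wild-type array. The median over the 12 members was -0.01, and 4 of 12 lay above 0, beside 59.3% of all genes tested. The counts above 0 became 7 of 12 without treated Tg2576 array 1 and 9 of 12 without that array and vehicle wild-type array 5, with medians of 0.01 and 0.03. In the cholesterol efflux and hydroxylation list 0 of 7 passed. The lowest p values belonged to Nr1h3, a liver X receptor, with a difference of -0.20, and Apoe, the main apolipoprotein of brain, with -0.11. In the fatty acid synthesis list 0 of 12 passed, with differences of -0.15 for the elongase Elovl5 and 0.15 for Acly, which supplies cytosolic acetyl-CoA.

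The upstream sequences of these genes are shown because 16 of the 17 enzymes differed in the same direction and the pathway has known promoter elements. The 250 bases before the start of each gene, from RefSeq on GRCm38.p6, were searched on both strands for TCACNCCAC, the core of a sterol regulatory element, and for CCAAT, the box bound by NF-Y. Of the 17 enzymes 14 had an entry, and Fdft1, Sqle and Fdps had none. Some genes have several starts listed, each with its own window. All 14 held CCAAT (or ATTGG, the same box on the other strand) in at least 1 window, beside 39.9% of 10439 genes tested in hippocampus, and 12 of the 14 held it in every window, beside 31.2%. The other two were Dhcr7, with the box in 1 of 3 windows, and Pmvk, with it in 1 of 2. TCACNCCAC was held by 1 of the 14, Hmgcs1, beside 1.3%. The most CCAAT boxes, 5, were in the window of Mvk, which had a difference of 0.14. Printed below are the windows of Hmgcs1, the called enzyme with an entry, and of Msmo1 and Hsd17b7, next to it in p among the enzymes with one, which hold 3 boxes each. Capitals mark these matches, and they do not overlap.
Hmgcs1 (chr13:119690101-119690350, plus strand): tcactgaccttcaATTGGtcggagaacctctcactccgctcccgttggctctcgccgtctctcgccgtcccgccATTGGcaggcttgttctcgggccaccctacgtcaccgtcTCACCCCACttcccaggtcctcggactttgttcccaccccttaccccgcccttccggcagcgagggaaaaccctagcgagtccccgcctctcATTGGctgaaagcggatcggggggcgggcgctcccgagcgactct
Msmo1 (chr8:64733579-64733828, minus strand): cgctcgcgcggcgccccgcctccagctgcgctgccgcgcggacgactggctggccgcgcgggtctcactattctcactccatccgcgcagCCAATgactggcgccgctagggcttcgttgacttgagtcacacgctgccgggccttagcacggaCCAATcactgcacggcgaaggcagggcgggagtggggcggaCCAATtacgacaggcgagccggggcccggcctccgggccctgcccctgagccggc
Hsd17b7 (chr1:169969206-169969455, minus strand): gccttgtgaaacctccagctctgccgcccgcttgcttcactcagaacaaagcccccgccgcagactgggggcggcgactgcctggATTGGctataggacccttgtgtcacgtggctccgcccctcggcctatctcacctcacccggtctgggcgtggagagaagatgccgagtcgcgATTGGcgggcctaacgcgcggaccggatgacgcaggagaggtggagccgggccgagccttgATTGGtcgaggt
A match describes the letters of the window and is not a measured binding site.

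In all, 10 genes, 0.0772% of those tested, had no overlap between the 8 treated Tg2576 and the 8 vehicle wild-type arrays, 8 of them higher (0.0617%) and 2 lower (0.0154%). Of the 8 higher genes, Fdft1, Stard4, Sqle, Hmgcs1, Msmo1, Insig1 and Fdps have been described above. The other was Azin1, an inhibitor of antizyme in polyamine metabolism, at 10.95 to 11.25 in treated Tg2576 and 10.78 to 10.94 in vehicle wild-type hippocampus. The lower genes were Auts2, a nuclear regulator of neuronal development, at 10.25 to 10.69 in treated Tg2576 against 10.71 to 10.92 in vehicle wild type, and Unc5b, a netrin receptor, at 7.38 to 8.05 in treated Tg2576 against 8.07 to 8.22 in vehicle wild type. Treated Tg2576 array 1 held the highest Azin1 value and the lowest Auts2 and Unc5b values. Without it the difference was 0.09 for Azin1 (0.12 with it), -0.23 for Auts2 (-0.27 with it) and -0.25 for Unc5b (-0.31 with it). Azin1 and Unc5b, with limma adjusted p of 0.477 and 0.382, were picked out after their values were seen.

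Beside Slc17a2, the lowest p values among differences below 0 belonged to Dio2, Tspan18, Cort and Auts2, and these 4 missed the threshold with limma adjusted p between 0.272 and 0.294. Dio2 encodes the deiodinase that makes active thyroid hormone in glia. Its log2 intensity was 8.46, 8.82 and 9.24 (lowest, median and highest) in treated Tg2576 hippocampus, against 9.02, 9.28 and 9.39 in vehicle wild-type hippocampus, and 7 of 8 treated Tg2576 arrays lay below the lowest vehicle wild-type array. The difference was -0.43 ± 0.10 (SE), and the other 2 probe sets gave -0.30 and 0.00. Tspan18, a tetraspanin, had a difference of -0.46 ± 0.11 (SE), or -0.36 without treated Tg2576 array 1, its lowest value, and Cort, the neuropeptide cortistatin, one of -0.47 ± 0.11 (SE). Slco1c1, a thyroid hormone transporter of brain vessels and astrocytes, had a difference of -0.25 (limma adjusted p = 0.496), or -0.16 without vehicle wild-type array 5, and 0 of the 6 tested genes of the thyroid hormone list passed.

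Levels in the other hippocampal groups place these genes. Fdft1 averaged 10.61 ± 0.16 in treated Tg2576, 10.61 ± 0.17 in vehicle Tg2576, 10.22 ± 0.22 in treated wild-type and 10.05 ± 0.18 in vehicle wild-type hippocampus (SD, n = 8 each). Stard4 averaged 8.55 in treated Tg2576, 8.45 in vehicle Tg2576, 8.01 in treated wild-type and 7.94 in vehicle wild-type hippocampus. For Sqle the mean was 10.35 in treated Tg2576, 10.26 in vehicle Tg2576, 9.96 in treated wild-type and 9.83 in vehicle wild-type hippocampus. Hmgcs1 averaged 12.39 in treated Tg2576, 12.33 in vehicle Tg2576, 12.03 in treated wild-type and 12.01 in vehicle wild-type hippocampus. In each of these 4 genes both Tg2576 means lay above both wild-type means. Against vehicle wild type, the vehicle Tg2576 group had differences of 0.56 ± 0.09 (SE) for Fdft1 (limma adjusted p = 0.0062), 0.51 for Stard4, 0.43 for Sqle and 0.32 for Hmgcs1 (adjusted p = 0.105 each), a contrast that shares the vehicle wild-type arrays. Between treated and vehicle Tg2576, which shares the treated arrays, the differences were 0.00 ± 0.09 for Fdft1, 0.10 ± 0.10 for Stard4, 0.08 ± 0.09 for Sqle and 0.06 ± 0.07 for Hmgcs1 (SE; limma adjusted p between 0.723 and 0.998). Over the 17 enzymes that median was 0.03, with a range of -0.09 to 0.21, and 0 passed.

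Slc17a2 followed another order, with a mean of 5.82 ± 0.13 in treated Tg2576, 6.12 ± 0.18 in vehicle Tg2576, 5.77 ± 0.11 in treated wild-type and 6.21 ± 0.17 in vehicle wild-type hippocampus (SD, n = 8 each). Both treated means lay below both vehicle means. Dio2 averaged 8.82 in treated Tg2576, 8.77 in vehicle Tg2576, 9.26 in treated wild-type and 9.25 in vehicle wild-type hippocampus, with both Tg2576 means below both wild-type means.

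The remaining hippocampal groups, vehicle Tg2576 and treated wild type, give a comparison that shares no array with the main one. It has the genotypes in the same order and the treatments in the opposite order. Both comparisons came from the same fit and share its estimate of each gene's spread, so their p-values are not independent. In vehicle Tg2576 minus treated wild type the difference was 0.39 ± 0.09 (SE) for Fdft1 (limma adjusted p = 0.0289), 0.45 ± 0.10 for Stard4 (0.0321), 0.30 ± 0.07 for Hmgcs1 (0.0282) and 0.30 ± 0.09 for Sqle (0.0623). Slc17a2 had the opposite sign there, 0.35 ± 0.07 (SE; adjusted p = 0.0212). Dio2 had the same sign, -0.49 ± 0.10 (SE; adjusted p = 0.0223). Of the 4 genes that rose in treated Tg2576, Fdft1, Stard4 and Hmgcs1 were thus called higher here too, beside 0.61% of all genes tested. Sqle missed the threshold and Slc17a2 was called with the opposite sign. In all, 1.41% of the genes tested were called here (0.802% lower), and 20.5% had an unadjusted limma p under 0.05. The calls of the named genes depended on single arrays of that pair and on the probe sets. With the mean of a gene's probe sets Hmgcs1 had a difference of 0.16 (adjusted p = 0.135), Stard4 0.41 (0.0624) and Fdft1 0.26 (0.0201). The other 3 Hmgcs1 probe sets above the filter gave 0.16, 0.12 and 0.26. Of the 16 fits that left out 1 of its arrays, Fdft1 passed in 10, Stard4 in 9, Hmgcs1 in 11, Slc17a2 in 12 and Sqle in 2, and each of them had the same sign in all 16. In a fit of only this pair the limma adjusted p was 0.0452 for Fdft1 and 0.0434 for Stard4 and Hmgcs1. It was 0.0347 for Slc17a2 and 0.118 for Sqle. With the signal range as a covariate the adjusted p was 0.168 for Fdft1, 0.168 for Stard4, 0.174 for Hmgcs1 and 0.288 for Slc17a2. The signal range was 3.52 ± 0.12 in vehicle Tg2576 and 3.65 ± 0.06 in treated wild-type arrays (SD, n = 8 each), and its part in these values was not tested otherwise.

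Across the list, all 17 enzymes were above 0 in the comparison of vehicle Tg2576 with treated wild type, where 39.1% of all genes tested were, with a median of 0.12. Of the other genes without overlap in the main comparison, Fdps had 0.27 there, Msmo1 0.16, Insig1 0.06 and Auts2 -0.14. Azin1, at -0.03, and Unc5b, at 0.03, changed sign. None of these passed (limma adjusted p between 0.151 and 0.883). Over all genes tested, 38.7% had the same sign in the 2 comparisons. Of the 750 genes higher at an unadjusted p under 0.05 in the main comparison, 28.8% had the same sign there, and of the 483 lower genes 30.2%. The drug by genotype interaction passed for 0 genes in limma (360 at an unadjusted p under 0.05, 2.78%), and for Fdft1, the gene with the smallest p, it was -0.17 ± 0.13 (SE; unadjusted p = 0.197). The 3 genes with the smallest interaction p were Etnppl, at -1.56 ± 0.42 (SE), Htra1, a secreted serine protease, at -0.27 ± 0.08 (SE), and Manba, a lysosomal mannosidase, at -0.53 ± 0.15 (SE; limma adjusted p = 0.9998 each).

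**Figure D4:**
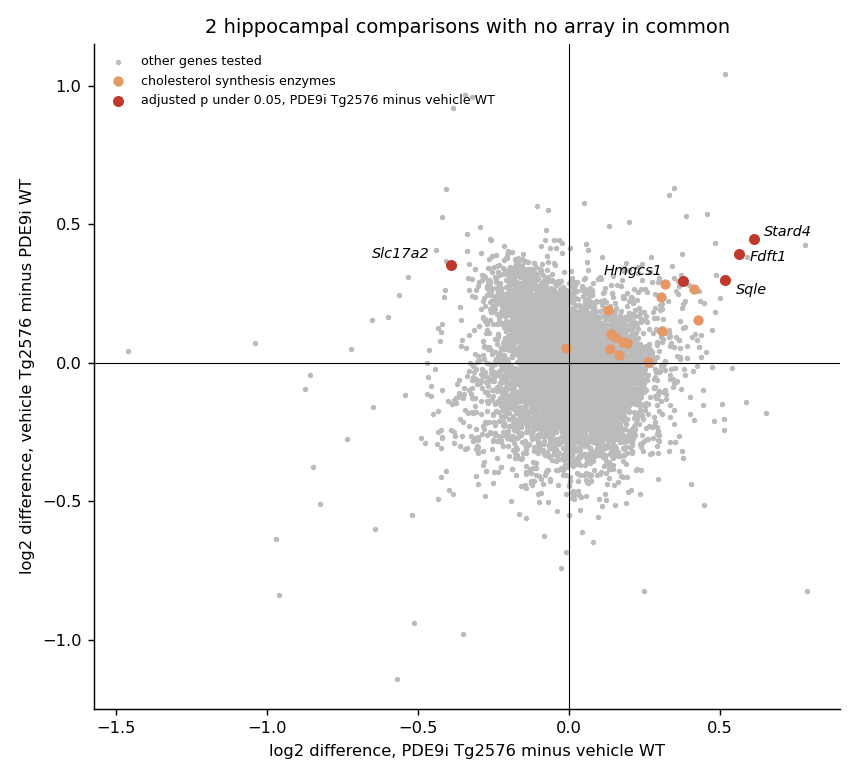
Each point is a gene tested in hippocampus, with the log2 difference of treated Tg2576 minus vehicle wild type on the x axis and of vehicle Tg2576 minus treated wild type, from other arrays, on the y axis. Fdft1, Stard4, Sqle and Hmgcs1 lie in the upper right, Slc17a2 in the upper left at -0.39 and 0.35, and the grey points hold more opposite than equal signs, 38.7% of genes having the same sign.

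The same groups were compared in prefrontal cortex. By the study's design both regions came from the same mice, and 26 of 32 hippocampal arrays matched the cortex array of their own group and number best, or as well as any other, over 23 probe sets with 2 separate levels. The cortex values are therefore not from separate animals. No gene passed an adjusted p of 0.05 there in limma (0 of 12925, 0%; 767 at an unadjusted p under 0.05, 5.93%). Fdft1 had a log2 intensity of 10.45 to 11.29 in treated Tg2576 and 10.39 to 10.75 in vehicle wild-type cortex, a difference of 0.35 ± 0.09 (SE; limma adjusted p = 0.608). The differences were 0.39 for Stard4, 0.37 for Sqle, 0.24 for Hmgcs1 and 0.48 for Fdps. Their groups overlapped in cortex. All 17 enzymes were above 0, beside 62.8% of all genes tested, with a median of 0.20. Slc17a2 had a difference of 0.00 ± 0.08 (SE) in cortex and Dio2 one of -0.37 ± 0.17 (SE). The difference between the regions, with arrays taken as independent, passed for 0 genes in limma (148 at an unadjusted p under 0.05, 1.14%). With arrays of the same group and number taken as 1 mouse, in a random block, it also passed for 0 (141 at an unadjusted p under 0.05). It was 0.21 ± 0.13 (SE) for Fdft1, and for Slc17a2, with the smallest p of all, -0.39 ± 0.11 (SE; unadjusted p = 0.00079).

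The drug target and the transgene's mouse counterpart gave no call. Pde9a had a log2 intensity of 6.88, 7.65 and 8.01 (lowest, median and highest) in treated Tg2576 hippocampus, against 7.11, 7.37 and 7.81 in vehicle wild-type hippocampus, with wide overlap. Its difference was 0.12 ± 0.15 (SE; limma adjusted p = 0.780). Over the list of cyclic GMP synthesis, breakdown and targets 0 of 20 passed, and 15 lay above 0, beside 59.3% of all genes tested. In vehicle Tg2576 minus treated wild type 6 of the 20 lay above 0, beside 39.1%. The lowest p values of the list in the main comparison belonged to the phosphodiesterases Pde3b, with a difference of -0.13, and Pde1a, with 0.29. The Pde1a difference was 0.18 without treated Tg2576 array 1, and that of Pde9a ran from 0.05 to 0.22 as single arrays were left out. The brightest App probe set gave -0.01 ± 0.03 (SE), the next 0.07, and the dim ones -0.03 and -0.02. The Prnp probe sets gave 0.03 and 0.06. Whether any of them reads the human transcript or the hamster sequence of the transgene is not given in the sources used here. In the amyloid precursor processing and clearance list 0 of 22 passed, with differences of 0.40 for Mme, the protease neprilysin, and -0.16 for Ide, insulin-degrading enzyme.

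No gene of the 18 cell type lists passed the threshold. Of all genes tested, 59.3% had a difference above 0. The members named for each list are those with its smallest p values, not its largest differences. All 9 measured dentate granule cell markers were below 0, with a median difference of -0.32 and a range of -0.97 to -0.01, among them C1ql2 (-0.65) and Prox1 (-0.65, and -0.32 without treated Tg2576 array 1). Their mean level was 7.10 to 9.22 on treated Tg2576 arrays and 8.56 to 9.40 on vehicle wild-type arrays, and without treated Tg2576 array 1 the median was -0.15. All 11 oligodendrocyte and myelin markers were below 0 with a median of -0.25 and a range of -0.35 to -0.06, among them Cnp (-0.25) and Mag (-0.25). Without array 1 that median was -0.03, with 4 of 11 above 0, and the differences were -0.07 for Cnp and -0.09 for Mag. All 8 cortical layer markers were above 0 with a median of 0.21 and a range of 0.04 to 0.51, among them Rprm (0.46) and Lamp5 (0.25), and without array 1 the median was 0.12, with 6 of 8 above 0. The choroid plexus markers, of which 10 were tested, had a median of -0.60, with Ttr at -1.46 ± 0.92 (SE) and Kcnj13 at -1.04 ± 0.68 (SE), the largest differences and the largest spreads. The choroid plexus median was -0.64 without treated Tg2576 array 4 and vehicle wild-type array 5, the extreme arrays of their groups, with 0 of 10 above 0, and -0.14 without treated Tg2576 array 1 and vehicle wild-type array 5, with 2 of 10 above 0. Ttr was -0.96 without treated Tg2576 array 1, and Kcnj13 -0.64 without vehicle wild-type array 5. Without treated Tg2576 array 4 and vehicle wild-type array 5 the cholesterol synthesis enzymes had a median of 0.30, with 17 of 17 above 0. Without treated Tg2576 array 1 and vehicle wild-type array 5 the cholesterol synthesis enzymes had a median of 0.28, with 17 of 17 above 0.

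**Figure D5:**
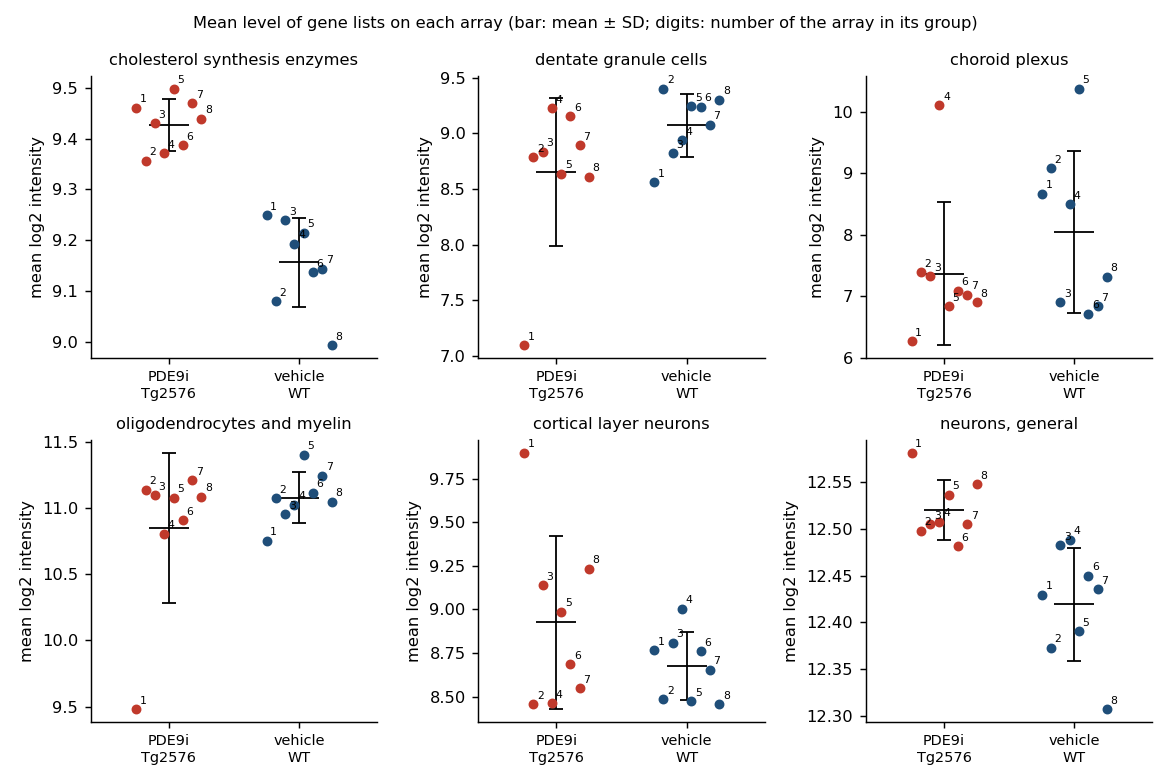
Mean log2 intensity (y axis) of 6 gene lists on each of the 16 arrays, treated Tg2576 on the left and vehicle wild type on the right; digits give the array's number in its group and bars are mean ± SD of 8 arrays. The cholesterol synthesis enzymes separate the groups, at 9.36 to 9.50 against 8.99 to 9.25. Array 1 of the treated Tg2576 group stands apart in the dentate and myelin panels and is highest in the cortical panel. In the choroid plexus panel array 4 of the treated Tg2576 group stands apart. Array 5 is there the highest of the vehicle wild-type arrays, which are widely spread.

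Among the other cell types, the 10 general neuronal markers were all above 0, beside 59.3% of all genes tested, with a median of 0.07. They included Stmn2 (0.19) and Nefm (0.15, and 0.10 without treated Tg2576 array 4). Meningeal fibroblast markers were above 0 in 1 of 12, with a median of -0.25 and a range of -0.73 to 0.18. Among them were Ogn (-0.57) and Islr (-0.44, and -0.20 without treated Tg2576 array 1). Without that array the list median was -0.16, again with 1 of 12 above 0. Microglial markers were above 0 in 11 of 12, beside 59.3% of all genes tested, with a median of 0.08. Without treated Tg2576 array 1 the count was 9 of 12 and the median 0.06. Among them were C1qa (0.16, and 0.09 without that array) and Aif1 (0.18). The amyloid-associated microglial activation markers were above 0 in 7 of 12, with a median of 0.02. Without treated Tg2576 array 1 the count was 4 of 12 and the median -0.01. At an unadjusted limma p under 0.05, 0 of these 12 were higher, beside 5.79% of all genes tested, and 2 lower, beside 3.73%. Among them were Gpnmb (-0.26) and Csf1 (-0.14, and -0.08 without that array). Astrocyte markers were above 0 in 1 of 13, with a median of -0.07, among them the bicarbonate transporter Slc4a4 (-0.23) and the glutamine synthetase gene Glul (-0.26). Oligodendrocyte precursor markers were above 0 in 1 of 7, with a median of -0.13 (-0.07 without treated Tg2576 array 1), among them Pdgfra (-0.18) and Cspg4 (-0.13). Inhibitory neuron markers were above 0 in 6 of 12, with a median of 0.00 and a range of -0.41 to 0.28 (4 of 12 and -0.03 without treated Tg2576 array 1), among them Sst (-0.27) and Pvalb (-0.20). None of these genes passed, and the part of cell composition in the sterol values was not tested beyond the dentate marker covariate.

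Over the 22 pathway lists outside sterol synthesis and sensing, 0 of 286 tested members passed, and the list medians lay between -0.11 and 0.09. The interferon and antigen presentation list had the lowest median, -0.11 over 13 genes, with Tap1, the peptide transporter, at -0.33 ± 0.09 (SE) and Ifit2 at 0.15. In the inflammatory signalling list 4 of 10 were lower at an unadjusted p under 0.05, beside 3.73% of all genes tested, among them the chemokine Cxcl1 (-0.24) and the receptor Tlr3 (-0.21). Of all genes tested, 59.3% had a difference above 0. Proteasome subunits were above 0 in 14 of 15, with a median of 0.07, among them Psmd12 (0.16) and Psmd1 (0.14). Presynaptic release genes were above 0 in 11 of 13, among them Rims1 (0.21), an active zone scaffold, and the syntaxin Stx1a (0.33, and 0.18 without treated Tg2576 array 1). In the postsynaptic list Nlgn1, neuroligin, had a difference of 0.20 and Dlg4, the scaffold PSD-95, one of -0.18, or -0.12 without vehicle wild-type array 8.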

How the data were processed

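RNA of 64 samples was measured on as many Affymetrix mouse arrays. Per the submitters' processing notes, the authors made the deposited intensity values by RMA, with a software version not given in the sources used here. They ran from 5.87 to 34088.93 and were converted to log2. The platform annotation gave a single gene to 34945 of 45101 probe sets, several to 932 and none to 9160, and 64 were controls. Symbols were updated through RefSeq (GRCm38.p6). For each of 18193 genes the probe set brightest on average was kept, and genes with a mean below the 40th percentile of probe sets (log2 5.94 in hippocampus, 5.91 in cortex) were left out.

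The 32 hippocampal arrays were fitted as 4 groups in limma 3.58.1 (R 4.3.3), with two-sided tests. P-values were adjusted by Benjamini-Hochberg over every gene in the fit, and an adjusted p under 0.05 counted as past the threshold. The region difference was fitted over all 64 arrays, with 12950 genes tested; both regions came from the same mice, and an alternative took the mouse as a random block. Array measures were compared with exact permutation tests over 12870 regroupings. The number of arrays limits the precision. Alternatives were other filters, probe set rules, normalizations, covariates, blocks and arrays left out in turn.

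The 18 cell type and 24 pathway lists, the members and the tests were chosen with earlier results of these data known. Named genes were those past the threshold, the 5 smallest p in a direction with fewer than 5 calls, the 2 smallest p of each list described, Pde9a, every App and Prnp probe set, all cholesterol synthesis enzymes and the 3 smallest p of other tests. The main fit did not pair arrays by replicate number, since the labels do not say what the numbers mark. Of 8 same-numbered pairs 4 correlated above 0.1, which does not settle whether they were paired. Plots were made in matplotlib 3.10.9 (Python 3.11.15) from tables handled with pandas 2.3.3 and numpy 2.4.6. List genes without a probe set named for them alone were not analysed here.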

Additional observations from a re-analysis of the deposited data

Results flagged for a closer look

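Among 26 sets of 8 arrays examined for a value far from the others, 8 held one. Chance gives about 1 in 20 for independent sets. The genes and lists were chosen with earlier results known and share arrays, so the count is not a test. In 5 of the 8 sets that held such a value the array was treated Tg2576 array 1. It had the highest log2 intensity of Fdft1, 10.96 against 10.47 to 10.66 on the other 7 arrays, of Stard4, 9.05 against 8.36 to 8.65, and of Hmgcs1, 12.80 against 12.25 to 12.39. It also had the lowest mean of the dentate granule cell markers, 7.10 against 8.61 to 9.22, and of the oligodendrocyte and myelin markers, 9.48 against 10.81 to 11.21. Treated Tg2576 array 4 had a choroid plexus marker mean of 10.11 against 6.26 to 7.39 on the others. In vehicle wild-type hippocampus, array 8 had an Msmo1 log2 intensity of 9.91 against 10.25 to 10.38, and array 5 had a signal range of 3.69 against 3.43 to 3.54. Fdft1, Stard4, Sqle and Hmgcs1 passed the threshold in each of the 16 fits that left out an array of the compared groups.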

How the results depend on the processing

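The comparison of treated Tg2576 with vehicle wild-type hippocampus had 5 genes past the threshold and stayed within 4 to 7 under the other filters, gene summaries, normalizations, covariates and blocks planned, and within 4 to 6 without any 1 array of the compared groups. The exceptions were 12 with all probe sets tested separately, 8 at an adjusted p under 0.10, and 0 with arrays numbered 1 to 4 only or 5 to 8 only, which hold 4 arrays a group (923 and 1822 genes at an unadjusted p under 0.05). A dentate granule marker covariate, chosen after seeing the data, gave 2. The mean difference of the cholesterol synthesis enzymes, 0.27, ranged from 0.211 to 0.326 over all alternatives. Same-numbered arrays were not shown to be paired (correlations of -0.17 to 0.34, with 2 arrays correlating best with their own number). The replicate block gave 6 calls, of which 4 were shared with the fit without it; Cort and Hsd17b7 were gained and Slc17a2 lost. Slc17a2 lost its call in 17 of 31 settings. It was below the filter, and so not tested, at the 60th percentile and with the mean of a gene's probe sets.

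The comparison of vehicle Tg2576 with treated wild-type hippocampus depended far more on the settings. Its 183 calls became 463 with no filter, 110 at the 60th percentile, 474 with all probe sets, 52 with the mean of a gene's probe sets, 61 after quantile normalization, 961 with array weights, 53 with the RNA quality covariate, 0 with the signal range covariate (1354 at an unadjusted limma p under 0.05), 674 with the replicate block and 731 with arrays 1 to 4 and 5 to 8 as 2 blocks. Leaving out single arrays of that pair, a check added after seeing the data, gave 11 to 685 calls and moved the count by over 1.5 times for 13 of 16 arrays. Without a vehicle Tg2576 array the count was 45 (array 1), 11 (array 2), 47 (array 3), 28 (array 4), 669 (array 5), 358 (array 7) and 685 (array 8). Without a treated wild-type array it was 34 (array 2), 33 (array 3), 26 (array 4), 479 (array 5), 64 (array 7) and 17 (array 8). The cause was not tested.

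The drug by genotype interaction and the region difference had 0 calls in all 13 and 12 settings run (195 to 928 and 73 to 364 genes at an unadjusted limma p under 0.05).

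Over the genes followed through all alternatives, only part of those measured, 2143 values stayed on their side of the threshold. Of the others 28 lost and 15 gained the call, and 16 changed sign. Some genes outside this tally also changed sign without 1 array. Without treated Tg2576 array 1 Lrp8 went from 0.12 to -0.0058 and Etnppl from -0.04 to 0.08. Without treated Tg2576 array 6 Manba went from 0.07 to -0.0068. Ebp, at -0.01, was 0.0051 with array weights, 0.064 with numbers 5 to 8 only and 0.018 without both arrays that stood apart, and -0.035 to 0.014 without single arrays of the compared groups. App was 0.0021 as the mean of its probe sets and 0.0082 with numbers 1 to 4 only. Pde9a was -0.0058 with the signal range covariate, -0.23 with numbers 1 to 4 only and -0.047 with the dentate granule marker covariate. With numbers 1 to 4 only, Tm7sf2 was -0.043 and Prnp -0.0069. The cause was not tested. The number of arrays limits the precision.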
